A study of Mus musculus with 40 samples.

Results

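The comparison covered here is that of untreated 4T1 with untreated 66cl4 primary tumors, always as 4T1 minus 66cl4. Its members were taken by their sample labels, as every untreated tumor with a column in the deposited expression table. These are 4 4T1 tumors (numbers 1, 2, 4 and 5) and 5 66cl4 tumors (numbers 1 to 5), 9 of the 39 tumors in the table, and each was described over all 14318 listed genes.

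4T1 and 66cl4 are mouse mammary carcinoma cell lines that were derived from the same spontaneous mammary tumor of a BALB/c mouse and are both used as models of triple-negative breast cancer (TNBC). Luciferase-expressing cells of either line, fewer of 4T1 than of 66cl4, were injected through the teat into the ducts of the third mammary glands of lactating, wild-type BALB/c females, and the primary tumors were taken at 5 w post-inoculation (p.i.). The mice of both groups received neither chitin nor anti-PD-1, and the other 30 tumors came from mice that did. Each model rests on 1 cell line, both lines carry the reporter gene, and untreated 4T1 tumor 3, set aside for RNA degradation, is not analysed here. Since a pair of glands was injected in each mouse, tumors of a group may share a mouse. The labels do not say whether each tumor came from a mouse of its own, so the p-values measure only the spread between these tumors. The RNA was bulk RNA of whole tumors, in which fewer cells of a type and less RNA per cell cannot be told apart, nor can transcripts of tumor cells and of host cells.

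Epithelial cells are held together by E-cadherin junctions, tight junctions with claudins and a keratin cytoskeleton, and carcinoma cells can lose this program and take up mesenchymal genes instead. Tumors also differ in the immune cells that they attract: neutrophils are drawn and kept alive by cytokines such as G-CSF, macrophages by CSF1 and CC chemokines. Antigen presentation by major histocompatibility complex (MHC) class I and class II molecules, which T cells read, is raised by interferons through factors such as IRF1 and CIITA.

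The 4T1 libraries held 5105898 to 8732427 reads on listed genes and the 66cl4 libraries 5732583 to 8408913, and this depth did not differ detectably between the models (two-sided exact permutation test, p = 0.921). Values were deposited on the log2-like scale of a variance stabilizing transformation (VST). Because this scale is compressed for genes of low count, the normalized counts behind it were recovered and are given beside the VST differences, always in the order of the tumor numbers above. The median VST value was 8.417 to 8.454 in 4T1 and 8.397 to 8.409 in 66cl4 (two-sided exact permutation test, p = 0.0159, the smallest possible). Spearman correlations between tumors over all genes were 0.950 to 0.980 within 4T1, 0.975 to 0.992 within 66cl4 and 0.841 to 0.878 between the models. 2 tumors stood apart from their own group. 4T1 tumor 5 alone held the keratins of basal and cornified epithelium in large amount, Krt5 at 2493 and Krt10 at 3164 normalized counts against at most 37.4 and 68.6 in the other 4T1 tumors. 66cl4 tumor 3 held skeletal muscle transcripts, with 4124 normalized counts summed over the 14 muscle markers against a group median of 121.5, and in 4T1 the sums ran from 211 to 5555 in tumor 4, with a median of 1531. Of these markers 2 were higher in 4T1, 8 without 66cl4 tumor 3 and 10 with tumor number as a block, and 11 were in treated tumors. The part of muscle in the results was not tested. Only 1 of the 10 listed markers of cornified skin was among the genes of the table, so that list cannot settle what tissue tumor 5 held.

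**Figure D1:**
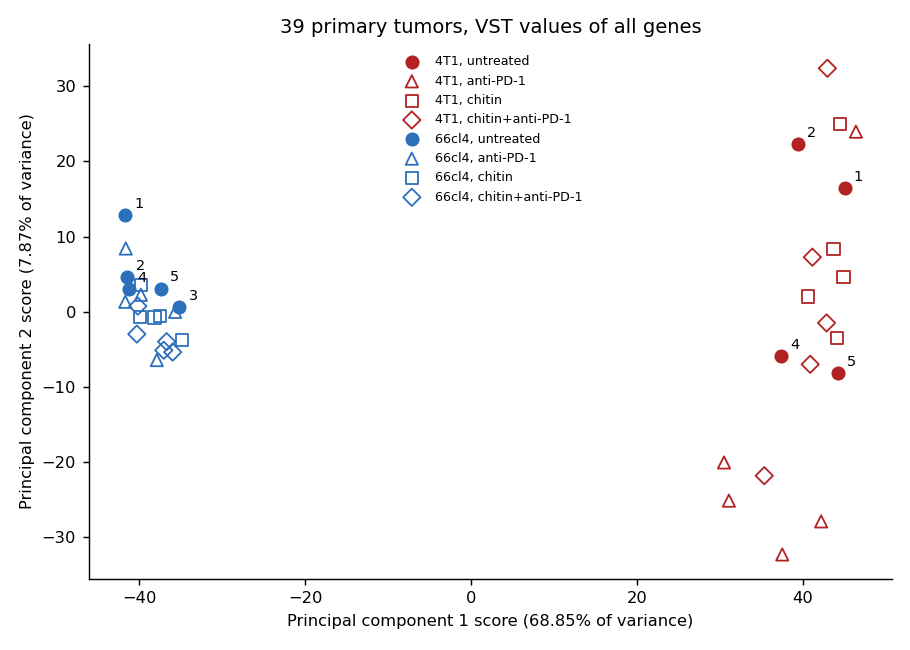
Principal component scores of all 39 tumors, from the VST values of all 14318 genes. The first component (68.85% of the variance, horizontal axis, score units) separates the 4T1 from the 66cl4 tumors without overlap, and the untreated tumors (filled, numbered) lie on the side of their own model.

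Of the 14318 genes, 3901 (27.2%) were higher in 4T1 and 3590 (25.1%) higher in 66cl4 at an adjusted p under 0.05 (limma on the VST values, Benjamini-Hochberg over all genes), 7491 genes (52.3%) in all. These shares are the background for every count of called genes below. A difference of at least 1 on the VST scale was passed by 922 genes (6.44%) in the direction of 4T1 and by 493 (3.44%) in that of 66cl4, 9.88% of the genes together. For a difference of at least 0.5 the shares were 16% and 11.3%, together 27.3%, and for one of at least 2 they were 1.63% and 0.705%, together 2.34%. The median difference over all genes was 0.02. All 4T1 tumors lay above all 66cl4 tumors in 22.3% of the genes and below them in 20.7%. In the first principal component, which held 68.85% of the variance of the 39 tumors, the 4 untreated 4T1 tumors scored 37.4 to 45.0 and the 5 untreated 66cl4 tumors -41.7 to -35.2.

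The epithelial program was higher in 4T1. Of its 28 members, all in the table, 26 were higher in 4T1 and none in 66cl4, and the median difference was 2.42. Cdh1, which codes for E-cadherin, the adhesion molecule of epithelial junctions, had 3160.1, 1586, 1752 and 3371 normalized counts in the 4T1 and 40.05, 61.9, 32.5, 28.3 and 45.4 in the 66cl4 tumors. Every 4T1 tumor lay far above every 66cl4 tumor, the difference was 4.12 (SE 0.21, adjusted p = 8.0e-08) and the mean normalized count was 59.2-fold higher. Epcam, the epithelial cell adhesion molecule, had 6425, 4097, 2426 and 6889.7 normalized counts in the 4T1 and 7.51, 29.8, 15.8, 10.3 and 30.7 in the 66cl4 tumors. Its difference was 5.42 (SE 0.26, adjusted p = 5.8e-08) and its mean was 263-fold higher in 4T1. Grhl2 and Esrp1, a transcription factor and a splicing regulator that maintain the epithelial state, had 326 and 391 normalized counts on average in 4T1 against 7.30 and 4.19 in 66cl4.

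The keratins did not all follow this pattern to the same extent. Krt7 had 3217, 2657, 2008 and 3514 normalized counts in the 4T1 and 8.76, 33.2, 7.03, 7.73 and 25.4 in the 66cl4 tumors and differed by 4.79 (SE 0.17, adjusted p = 5.7e-09), and Krt18 had 7389, 7227, 4966 and 6964 normalized counts in the 4T1 and 300.4, 257, 108, 167 and 235 in the 66cl4 tumors and differed by 4.37 (SE 0.19, adjusted p = 2.3e-08). Krt8, the partner with which keratin 18 forms filaments in simple epithelia, was abundant in both models. It had 8822, 10303, 6546 and 7306 normalized counts in the 4T1 and 4806, 4262, 4928, 3152 and 3975 in the 66cl4 tumors, with a difference of 0.94 (SE 0.16, adjusted p = 6.4e-04). Mean Krt8 counts were 1.24 times the mean Krt18 counts in 4T1 and 19.8 times in 66cl4, a ratio not corrected for transcript length. Of the 11 keratin genes listed, 5 were higher in 4T1, none was higher in 66cl4 and 6 did not pass, and without 4T1 tumor 5 and 66cl4 tumor 3 the counts were 7 and 1. The size of the Krt14 difference rested on 1 tumor. Krt14, a keratin of basal cells, had 163, 81.3, 104 and 3933 normalized counts in the 4T1 and 12.5, 21.8, 5.28, 7.73 and 32.03 in the 66cl4 tumors. All 4T1 tumors were higher, but the difference of 2.15 (adjusted p = 0.032) became 1.11 without 4T1 tumor 5. The call was lost when any of 66cl4 tumors 1, 2, 3 or 4 was left out (adjusted p of 0.053 to 0.061), and with limma-voom (adjusted p = 0.096).

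Claudins, the tight junction proteins, separated the models in opposite directions by member. Cldn4 had 5976, 5585, 3956 and 4816 normalized counts in the 4T1 and 6.26, 33.2, 5.28, 2.58 and 20.02 in the 66cl4 tumors and its mean was 377-fold higher in 4T1, with a difference of 5.70 (SE 0.16, adjusted p = 1.9e-09). Cldn3 and Cldn7 were 169-fold and 162-fold higher in 4T1, and Cldn2 5.32-fold. Cldn9 ran the other way, with 1.18, 3.13, 1.82 and 49.8 normalized counts in the 4T1 and 93.9, 72.2, 174, 59.2 and 45.4 in the 66cl4 tumors and a difference of -1.05 (SE 0.24, adjusted p = 0.0037), and only 4T1 tumor 5 reached into the 66cl4 range.

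The stretches upstream of the start of 4 of these genes are printed because the genes moved together and because the E-box CAGGTG is the sequence that repressors of the epithelial program such as ZEB1 and Snail bind. The letters were read from RefSeq on GRCm38.p6, the build mm10, and cover the 250 bases before the annotated start, 5′ to 3′ on the strand of the gene, with CAGGTG or its reverse complement CACCTG in capitals.
Epcam, chr17:87635729-87635978, plus strand: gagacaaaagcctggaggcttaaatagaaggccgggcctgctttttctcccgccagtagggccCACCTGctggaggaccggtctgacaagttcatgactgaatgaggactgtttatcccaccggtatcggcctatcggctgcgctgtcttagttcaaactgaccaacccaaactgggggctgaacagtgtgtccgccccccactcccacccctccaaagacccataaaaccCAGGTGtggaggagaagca
Cldn4, chr5:134946935-134947184, minus strand: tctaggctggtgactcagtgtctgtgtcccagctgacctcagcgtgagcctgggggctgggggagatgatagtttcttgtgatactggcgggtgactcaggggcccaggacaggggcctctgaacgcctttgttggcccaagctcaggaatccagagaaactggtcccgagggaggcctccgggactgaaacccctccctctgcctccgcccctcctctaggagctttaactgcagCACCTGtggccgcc
Krt7, chr15:101412153-101412402, plus strand: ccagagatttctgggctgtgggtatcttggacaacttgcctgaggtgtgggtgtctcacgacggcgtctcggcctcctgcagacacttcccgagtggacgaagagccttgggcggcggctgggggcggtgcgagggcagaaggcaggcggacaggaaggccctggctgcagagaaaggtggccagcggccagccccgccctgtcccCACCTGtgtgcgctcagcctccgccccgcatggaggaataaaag
Krt18, chr15:102027966-102028215, plus strand: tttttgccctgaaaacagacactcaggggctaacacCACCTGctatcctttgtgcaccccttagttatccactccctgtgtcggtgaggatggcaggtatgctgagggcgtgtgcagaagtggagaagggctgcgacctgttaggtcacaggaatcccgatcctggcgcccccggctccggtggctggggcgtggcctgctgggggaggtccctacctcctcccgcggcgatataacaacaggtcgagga
Epcam holds 2 matches, which begin 187 and 19 bases before the start, and the other 3 genes hold 1 match each, at 14 bases in Cldn4, 44 in Krt7 and 214 in Krt18. Of all 32851 RefSeq promoter windows, 17.2% hold the E-box in the same 250 bases. A window was at hand for 16 of the 28 members of the list, under the 80% needed, so a share over the list would be void and is not given. The 4 printed genes are chosen examples, so their matches do not measure how common the E-box is in the list. A match describes the sequence and does not show that a factor bound there.

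The mesenchymal program split. Of its 20 members, 6 were higher in 4T1 and 8 in 66cl4, with a median difference of -0.05. Cdh2, which codes for N-cadherin, had 7.09, 6.25, 49.2 and 15.7 normalized counts in the 4T1 and 708, 789.8, 1132, 813 and 758 in the 66cl4 tumors, and was 42.9-fold higher in 66cl4 (difference -3.15, SE 0.17, adjusted p = 1.2e-07). S100a4, a calcium-binding protein used as a marker of mesenchymal and metastatic cells, had 623, 474, 524 and 1174 normalized counts in the 4T1 and 6789.6, 7458, 6996, 6726 and 5412 in the 66cl4 tumors and differed by -3.11 (SE 0.20, adjusted p = 6.0e-07). Of the repressors of epithelial genes, Zeb1 was 5.19-fold higher in 66cl4, Zeb2 1.92-fold and Snai2 3.67-fold, whereas Snai1 was 11.03-fold higher in 4T1, with 249, 500.4, 251 and 164 normalized counts in the 4T1 and 22.5, 28.7, 25.5, 18.03 and 37.4 in the 66cl4 tumors. Vim, the intermediate filament of mesenchymal cells, had 21448, 27982, 22496 and 13414 normalized counts in the 4T1 and 22218, 19667, 27751, 18358 and 22853 in the 66cl4 tumors. The groups overlapped and the gene did not pass (difference -0.09, SE 0.21, adjusted p = 0.74). Lox, Tagln and Fbn1, genes of matrix crosslinking, contractile filaments and microfibrils, were 13.4-fold, 9.27-fold and 7.65-fold higher in 4T1.

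**Figure D2:**
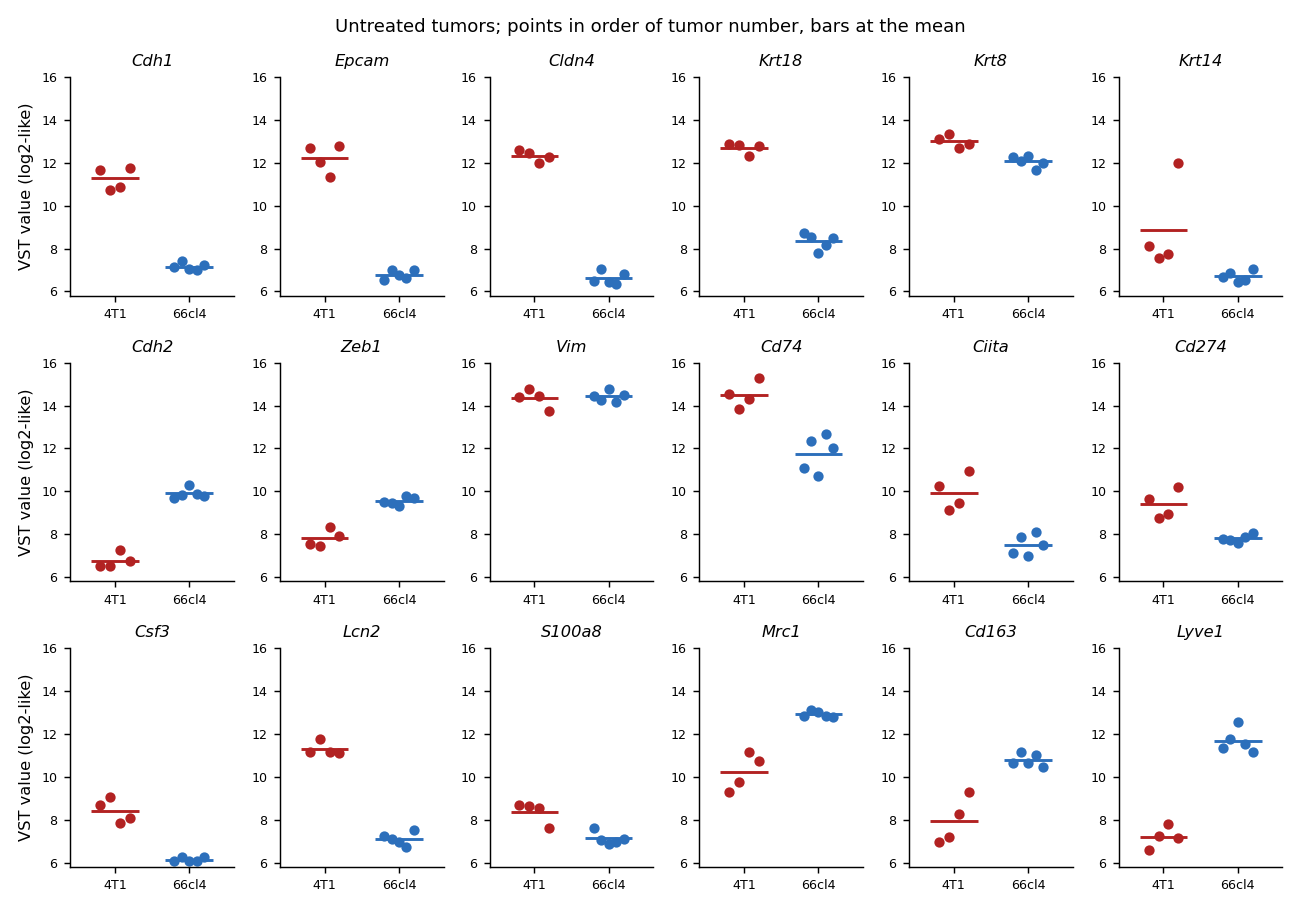
VST values (log2-like scale, vertical axis) of 18 genes in each of the 9 untreated tumors, 4T1 in red and 66cl4 in blue, with horizontal bars at the group means. The groups do not overlap for any gene shown except Vim, and 4T1 tumor 5 is the high point of Krt14 and the low point of S100a8.

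Among all genes without overlap between the groups, the largest difference in the direction of 4T1 was that of Npnt, and the others of the first 15 included several matrix and membrane proteins. Npnt, coding for the basement membrane protein nephronectin, had 6557, 8713, 18461 and 4913 normalized counts in the 4T1 and 15.02, 14.9, 21.98, 11.6 and 8.01 in the 66cl4 tumors. Its difference was 6.37 (SE 0.30, adjusted p = 4.3e-08), and its mean was 676-fold higher. Dmp1, a phosphoprotein of mineralized matrix, followed with 312-fold more in 4T1, and Wfdc2 with 72.2-fold. Tnc, coding for the matrix protein tenascin-C, was 27.4-fold higher in 4T1 with 4242, 3412, 7249.7 and 6364 normalized counts in the 4T1 and 108, 53.9, 503, 55.4 and 249.6 in the 66cl4 tumors, and was uneven in 66cl4, where tumor 3 was highest. Also among the 15 were Serinc2, Lad1, Gpa33, Moxd1 and Scara3, with differences between 4.34 and 4.55. Hhip, described below, and several of the epithelial genes above belong to the 15 as well.

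In 66cl4 the largest difference was that of Ogn, which codes for the small leucine-rich proteoglycan osteoglycin, with 3.55, 12.5, 46.5 and 72.1 normalized counts in the 4T1 and 4766, 4682, 2974, 7344 and 5877 in the 66cl4 tumors. It was 152-fold higher in 66cl4 (difference -5.36, SE 0.27, adjusted p = 7.6e-08). Aldh3a1, an aldehyde dehydrogenase, had 2.36, 1.56, 7.29 and 7.86 normalized counts in the 4T1 and 6138, 4252, 1681, 2428 and 2094 in the 66cl4 tumors and was 696-fold higher (difference -5.18, SE 0.31, adjusted p = 3.2e-07). Il1rl1, the receptor of interleukin-33, was 52.6-fold higher in 66cl4, the caveolar protein gene Cavin2 43.6-fold, Sema3a, coding for a secreted guidance cue, 52.2-fold, and the protocadherin gene Pcdh17 119-fold. Rhox5, a homeobox gene on the X chromosome, had 0, 6.25, 0.91 and 11.8 normalized counts in the 4T1 and 999, 1094, 1250.3, 1061 and 1121 in the 66cl4 tumors and Prrx2, a homeobox gene of mesenchyme, 31.9, 23.4, 55.6 and 36.7 normalized counts in the 4T1 and 1529, 1629, 1095, 1516 and 1532 in the 66cl4 tumors. The groups do not overlap for these genes, and the remaining ones of the 15 were Lrrn4cl, Lncenc1, Prl2c2, Ctxnd1 and Sned1, with differences between -3.86 and -3.65. Lyve1 and Foxd1 are described below.

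A stricter reading asks which genes were nearly silent in one model. In each direction 63 genes had at most 3 reads in every tumor of one model and a mean of at least 50 normalized counts in the other. Their counts chose them, so that the 57 and 63 of them that were also called are a description. Hhip, an inhibitor that binds hedgehog ligands, had 1523, 2516, 2014 and 1629 normalized counts in the 4T1 and 2.50, 2.29, 0.88, 1.29 and 0 in the 66cl4 tumors. Every tumor of 4T1 lay above 1500 normalized counts and no 66cl4 tumor above 3. Tmprss11e, a membrane serine protease of epithelia, had 1134, 1457, 936 and 1073 normalized counts in the 4T1 tumors and 0 reads in every 66cl4 tumor, at least 1662-fold higher against a floor of 3 reads over the group. Perp, a desmosome gene that p53 and p63 induce, had 946, 513, 475 and 1398 normalized counts in the 4T1 and 2.50, 3.44, 2.64, 0 and 1.33 in the 66cl4 tumors, and Fermt1, an integrin activator of epithelia, 645, 641, 702 and 599 normalized counts in the 4T1 and 2.50, 2.29, 0.88, 0 and 0 in the 66cl4 tumors. The other genes named by the rule in this direction were Fam167a, Fbxo2, Dmrta2, Uox, Il23a and Pthlh, the last of which codes for parathyroid hormone-related protein and had 422, 552, 213 and 110.1 normalized counts in 4T1.

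In the direction of 66cl4, the highest means were those of Foxd1 and Lbx1, transcription factors of embryonic patterning. Foxd1 had 0, 0, 0 and 1.31 normalized counts in the 4T1 and 741, 753, 353, 683 and 992 in the 66cl4 tumors, and Lbx1 had 2.36, 1.56, 2.73 and 0 normalized counts in the 4T1 and 541, 546, 516, 511 and 707 in the 66cl4 tumors. Six3, a homeobox gene of forebrain and eye, had 268, 298, 291, 259 and 227 normalized counts in 66cl4 and no more than 1.31 normalized counts in any 4T1 tumor. Magea10, a cancer-testis gene, was listed at 0 reads in all 4 4T1 tumors against 230.3, 254, 271, 247 and 279 normalized counts in 66cl4, at least 286-fold more, and Gm773, Gm15107 and Ptprtos were also at 0 reads in 4T1. The others were Csmd3, Xlr3a and Kcnf1. Magea10, Xlr3a, Gm773 and Gm15107 lie on the X chromosome. Xlr3a, Magea10 and Prl2c2 have near-identical copies in the genome between which reads may have been split, so their values are uncertain.

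MHC class I presentation was higher in 4T1. Of the 16 members, 15 were higher in 4T1 and none in 66cl4, with a median difference of 1.95. H2-K1 had 4856, 3903, 2642 and 4841 normalized counts in the 4T1 and 719.6, 828, 801, 777 and 873 in the 66cl4 tumors. Its difference was 2.14 (SE 0.16, adjusted p = 1.5e-06), with no overlap. B2m, the light chain of all class I molecules, was 3.51-fold higher and Tap1, which pumps peptides into the endoplasmic reticulum, 8.71-fold. Nlrc5, the transactivator of class I genes, had 1267, 876, 835 and 1969.8 normalized counts in the 4T1 and 51.3, 84.8, 68.6, 139 and 74.7 in the 66cl4 tumors and differed by 2.77 (SE 0.22, adjusted p = 2.6e-06). The nonclassical H2-T23 was 12.3-fold higher and H2-Q6 13.3-fold, although the H2-K, H2-D, H2-Q and H2-T genes are close copies of each other and reads may have been split between them.

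MHC class II presentation showed the same direction, in 10 of 11 members and none in 66cl4, with a median difference of 2.37. Cd74, the invariant chain that escorts class II molecules, had 23684, 14731, 20217 and 39671 normalized counts in the 4T1 and 2045, 4996, 1525, 6297 and 4000.1 in the 66cl4 tumors. Its difference was 2.74 (SE 0.41, adjusted p = 2.4e-04). Ciita, the transactivator of class II genes, had 1090, 432, 565 and 1866 normalized counts in the 4T1 and 37.5, 120.4, 28.1, 155 and 72.1 in the 66cl4 tumors, and its mean was 11.97-fold higher in 4T1. H2-Aa, H2-Ab1 and H2-Eb1 were 6.51-fold, 8.43-fold and 8.36-fold higher. Within 4T1, tumors 1 and 5 were the highest for Cd74, Ciita, H2-Aa, H2-Ab1 and H2-Eb1, and within 66cl4, tumors 2 and 4 were.

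The interferon response followed, with 25 of 29 listed members higher in 4T1 and none in 66cl4, and a median difference of 1.32. Igtp, a GTPase that interferon gamma induces, had 2748, 877, 685 and 3326 normalized counts in the 4T1 and 65.1, 101, 134, 167 and 145 in the 66cl4 tumors. Its difference was 2.86 (SE 0.39, adjusted p = 1.5e-04), and its mean was 15.6-fold higher in 4T1. Gbp4, a GTPase of the same kind, was 11.1-fold higher, while Isg15, Ifit1 and Ifit3, targets of type I interferon, were 3.63-fold, 3.72-fold and 2.58-fold higher. Ifng itself had 27.2, 4.69, 5.47 and 57.7 normalized counts in the 4T1 and 0, 0, 0.88, 0 and 0 in the 66cl4 tumors, which is 1 read in the 66cl4 tumors together. Tumors 1 and 5 were the highest of the 4T1 group for Igtp, Gbp4, Tap1 and Ciita alike. Dendritic cell and T cell markers moved as well. Of the 14 dendritic cell markers 6 were higher in 4T1 and none in 66cl4, with summed counts of 4982 to 7023 against 2274 to 2844. Of the 17 listed T cell markers 8 were higher and none lower, with sums of 716 to 2124 against 449 to 592.5. Without 4T1 tumor 5 and 66cl4 tumor 3, 5 and 6 of these markers were higher in 4T1 and 1 of each list was higher in 66cl4. Macrophage markers ran towards 66cl4, and the B cell genes and the cytotoxic and natural killer genes were called equally often each way, as given below. The part of any of these cells in the MHC and interferon differences was not tested.

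The upstream stretches of Gbp3, Igtp and H2-T23 are printed as examples of the interferon-response element, here searched for as GAAA, any 2 bases and GAAA again, or on the other strand TTTC, any 2 bases and TTTC. Matches are in capitals. Gbp3, another interferon-induced GTPase, was 8.15-fold higher in 4T1, and the other 2 are given above. Source, build and strand convention are those given above.
Gbp3, chr3:142559794-142560043, plus strand: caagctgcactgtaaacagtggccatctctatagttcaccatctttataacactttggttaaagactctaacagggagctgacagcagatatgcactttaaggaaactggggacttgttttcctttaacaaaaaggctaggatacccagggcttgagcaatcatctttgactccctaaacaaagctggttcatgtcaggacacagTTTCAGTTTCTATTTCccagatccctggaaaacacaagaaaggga
Igtp, chr11:58199306-58199555, plus strand: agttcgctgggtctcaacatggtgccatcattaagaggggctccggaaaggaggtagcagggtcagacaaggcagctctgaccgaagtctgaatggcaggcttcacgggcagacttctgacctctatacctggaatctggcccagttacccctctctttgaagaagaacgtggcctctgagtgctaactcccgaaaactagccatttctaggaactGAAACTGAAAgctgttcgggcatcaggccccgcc
H2-T23, chr17:36032702-36032951, minus strand: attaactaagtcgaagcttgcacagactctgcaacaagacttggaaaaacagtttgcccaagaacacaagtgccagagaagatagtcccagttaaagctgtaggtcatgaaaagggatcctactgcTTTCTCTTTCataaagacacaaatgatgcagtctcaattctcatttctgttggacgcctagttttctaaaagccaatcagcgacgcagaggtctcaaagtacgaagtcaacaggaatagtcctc
Gbp3 holds 2 overlapping matches that begin 45 and 39 bases before the start, Igtp 1 at 34 bases and H2-T23 1 at 124 bases. The element stands in 2.98% of the 32851 RefSeq windows of the same length. Of the 13 class I members with a window, 2 hold it. For the interferon list, windows were at hand for 22 of the 29 listed members, under the 80% needed, so no share is given. Gbp3 was chosen for printing after its values were seen. All 3 printed genes are chosen examples, so their matches do not measure how common the element is in either list.

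Inhibitory checkpoint genes were higher in 4T1 in 8 of 15 cases and higher in 66cl4 in 1. Nt5e, which codes for the adenosine-forming ectoenzyme CD73, had 3447, 3005, 4079 and 1873 normalized counts in the 4T1 and 80.1, 65.3, 113, 70.8 and 128 in the 66cl4 tumors and was 33.9-fold higher (difference 3.96, SE 0.19, adjusted p = 6.4e-08). Cd274, coding for PD-L1, had 662, 308, 373 and 1044 normalized counts in the 4T1 and 108, 101, 80.9, 121 and 152 in the 66cl4 tumors, with 1.57 (SE 0.25, adjusted p = 4.0e-04), and Pdcd1, its receptor PD-1, was 4.70-fold higher. Havcr2 and Lag3, coding for TIM-3 and LAG-3, were 3.30-fold and 4.92-fold higher. Tigit, an inhibitory receptor of T and natural killer cells, ran the other way with 82.8, 25.02, 32.8 and 111 normalized counts in the 4T1 and 290.4, 222, 121, 185 and 167 in the 66cl4 tumors.

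The neutrophil markers were mostly higher in 4T1, in 15 of the 26 listed, with 4 higher in 66cl4, a median difference of 0.52 and summed counts of 7537 to 10070 against 3851 to 4882. Without the 25% of genes with the lowest mean, 13 of these markers remained, 5 higher in 4T1 and 4 in 66cl4. The sums include Lcn2 and Mmp9, whose counts are given below. Of the defining markers, Ly6g, Mpo and Elane were not among the listed genes. S100a8 and S100a9 code for the calprotectin subunits that fill neutrophils. S100a8 had 287, 279.9, 256 and 83.9 normalized counts in the 4T1 and 83.8, 32.1, 22.9, 28.3 and 37.4 in the 66cl4 tumors, and S100a9 had 452, 432, 408 and 139 normalized counts in the 4T1 and 98.9, 45.9, 39.6, 55.4 and 74.7 in the 66cl4 tumors. Both differed without overlap, by 1.25 and 1.45, but 4T1 tumor 5 was low and, for S100a8, level with 66cl4 tumor 1. Cxcr2, the receptor through which neutrophils follow chemokines, was 5.05-fold higher in 4T1 (difference 0.78, SE 0.11, adjusted p = 1.5e-04). Csf3r, the G-CSF receptor, had 206, 252, 363 and 305 normalized counts in the 4T1 and 171, 203, 136, 285 and 162 in the 66cl4 tumors. The groups overlapped and it did not pass (difference 0.39, SE 0.15, adjusted p = 0.052), but it passed without 4T1 tumor 1 (adjusted p = 0.025), without 66cl4 tumor 4 (0.013), with limma-voom (0.039), on log2 counts (0.0497), at equal depth (0.045) and with the block (0.038). Lcn2, a siderophore-binding protein of neutrophils and of inflamed epithelia, had 2165, 3316, 2135 and 2059 normalized counts in the 4T1 and 46.3, 37.8, 27.3, 14.2 and 74.7 in the 66cl4 tumors and was 60.4-fold higher, the largest difference of the list. In the opposite direction stood Clec4d, Fpr1 and Clec4e, myeloid pattern receptors, which were 5.83-fold, 7.53-fold and 3.26-fold higher in 66cl4.

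Of the 19 cytokines and receptors that attract or feed neutrophils, 9 were higher in 4T1 and 3 in 66cl4. Csf3, coding for G-CSF, had 296, 416, 115 and 151 normalized counts in the 4T1 and 0, 1.15, 0, 0 and 1.33 in the 66cl4 tumors, where 66cl4 held 2 reads in all. Its difference was 2.29 (SE 0.22, adjusted p = 9.3e-06). Il23a, a subunit of interleukin-23, had 278, 403, 222 and 427 normalized counts in the 4T1 and 3.75, 0, 0.88, 2.58 and 1.33 in the 66cl4 tumors, and Il1b was 5.23-fold higher in 4T1. Chemokines of the CXCR2 family split. Cxcl1 was 2.71-fold higher in 4T1, and Cxcl3 and Cxcl5 were 4.71-fold and 8.69-fold higher in 66cl4. Csf1, the growth factor of macrophages, had 1069.9, 1670, 2040.4 and 1426 normalized counts in the 4T1 and 5616, 4284, 6146, 4416 and 5384 in the 66cl4 tumors, 3.33-fold more in 66cl4 (difference -1.68, SE 0.17, adjusted p = 1.6e-05). A further list held cytokines that had also been assayed as proteins in these models. Of its 10 genes, 3 (Csf3, Ifng and Il1b) were higher in 4T1, 1 (Ccl2) in 66cl4 and 6 did not pass, while 5 were higher in 4T1 without 4T1 tumor 2.

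**Figure D3:**
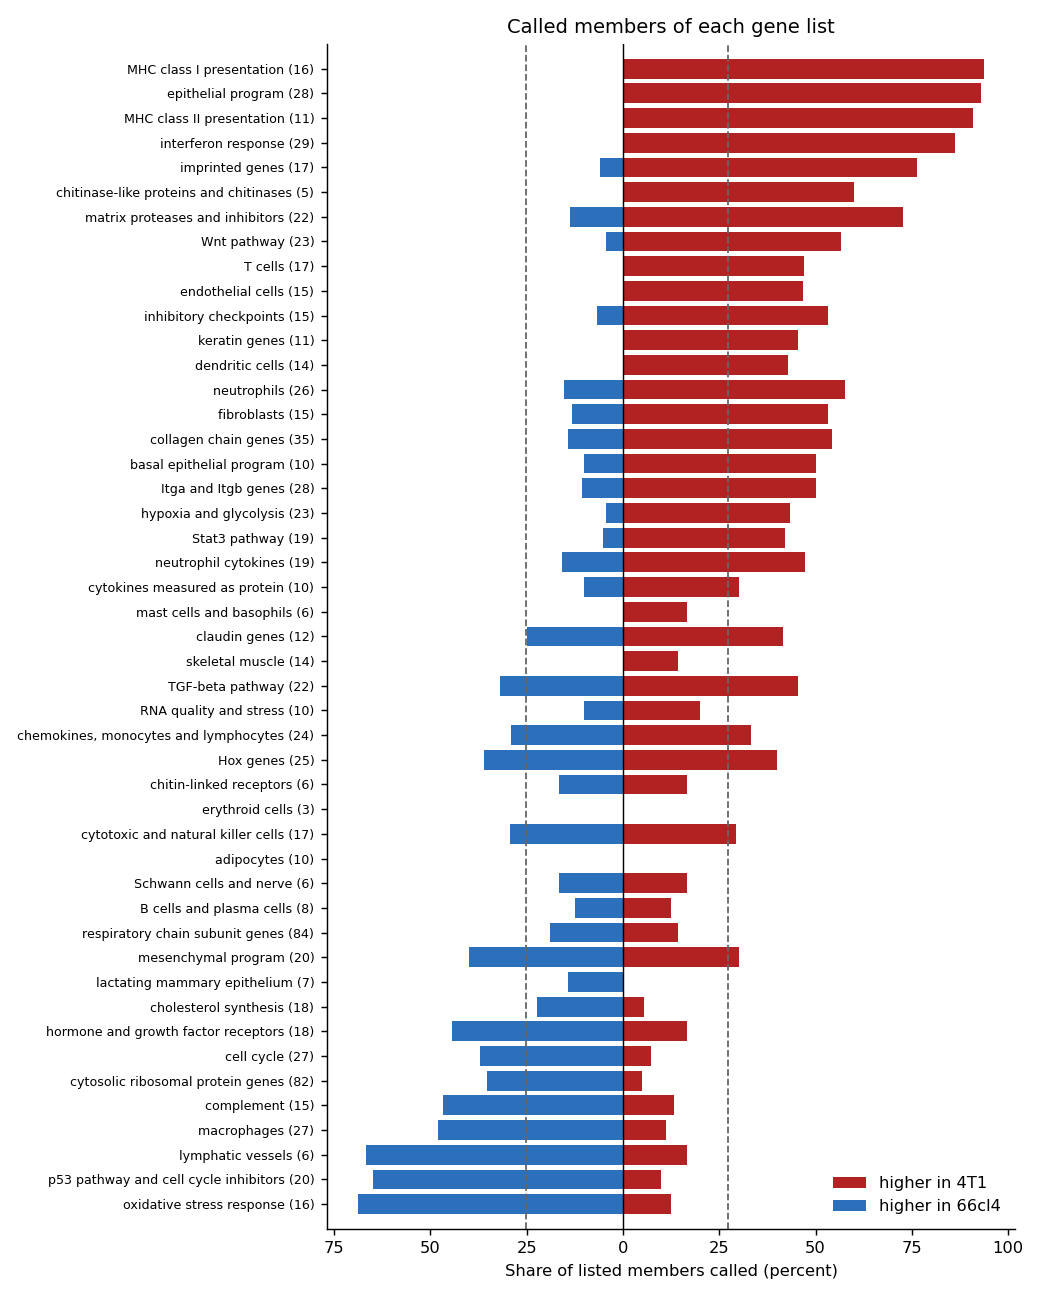
Share of the listed members of each gene list (percent, horizontal axis) that was higher in 4T1 (red, to the right) or higher in 66cl4 (blue, to the left) at an adjusted p under 0.05, for the lists with at least 3 members in the table, with that number behind the name. The dashed lines mark the shares over all 14318 genes, 27.2% and 25.1%.

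Macrophage markers ran towards 66cl4. Of the 27 listed, 13 were higher in 66cl4 and 3 in 4T1, the median difference was -0.44, and summed counts were 98940 to 146000 in 66cl4 against 54310 to 100800 in 4T1. The pan-macrophage gene Adgre1, coding for F4/80, was 2.06-fold higher in 66cl4 (difference -0.99, SE 0.22, adjusted p = 0.0032), while C1qa did not pass (difference -0.30, SE 0.16, adjusted p = 0.14) except without 66cl4 tumor 1 (difference -0.43, adjusted p = 0.019). Larger differences were seen for scavenger and endocytic receptors. Mrc1, coding for the mannose receptor CD206, had 506, 749, 2123 and 1591 normalized counts in the 4T1 and 7216, 8698, 8337, 7155 and 6871 in the 66cl4 tumors, with -2.68 (SE 0.31, adjusted p = 4.4e-05). Cd163, the haemoglobin scavenger receptor, had 28.4, 42.2, 192 and 509 normalized counts in the 4T1 and 1470.5, 2141, 1466, 1968 and 1265 in the 66cl4 tumors and was 8.62-fold higher. Folr2, a folate receptor of resident macrophages, was 9.16-fold higher, and Stab1, coding for the clearance receptor stabilin-1, 4.89-fold, with 835, 1378, 3538 and 1682 normalized counts in the 4T1 and 7961, 10741, 8314, 9094 and 9328 in the 66cl4 tumors. In 4T1, tumors 1 and 2 were the lowest for Mrc1, Cd163, Folr2 and Stab1.

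Of the macrophage list, 3 genes were higher in 4T1, or 5 without 4T1 tumor 2 or with tumor number as a block. Cx3cr1, the fractalkine receptor of monocytes, had 748, 772, 2123 and 801 normalized counts in the 4T1 and 61.3, 89.4, 84.4, 130.1 and 220.2 in the 66cl4 tumors and was 9.49-fold higher (difference 2.35, SE 0.29, adjusted p = 6.5e-05). Nos2, the inducible nitric oxide synthase, was 8.40-fold higher, with 398, 256, 174 and 869 normalized counts in the 4T1 and 43.8, 49.3, 40.5, 29.6 and 89.4 in the 66cl4 tumors. Ly6c2, a marker of inflammatory monocytes, had 74.5, 21.9, 49.2 and 392 normalized counts in the 4T1 and 5.01, 6.88, 21.1, 9.02 and 2.67 in the 66cl4 tumors, and its difference of 1.12 shrank to 0.67 without 4T1 tumor 5. Itgax, coding for CD11c of dendritic cells and of some macrophages, had 602, 489, 608 and 1278 normalized counts in the 4T1 and 62.6, 48.1, 56.3, 73.4 and 66.7 in the 66cl4 tumors and was 12.1-fold higher in 4T1, whereas Itgam, coding for CD11b, was 3.24-fold higher in 66cl4.

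Lyve1, a hyaluronan receptor of lymphatic vessels that resident macrophages carry as well, had 9.46, 48.5, 109 and 39.3 normalized counts in the 4T1 and 2432, 3371, 5832, 2871 and 2126 in the 66cl4 tumors. It was 64.4-fold higher in 66cl4 (difference -4.47, SE 0.29, adjusted p = 5.7e-07), after Ogn and Aldh3a1 the largest difference in that direction. The other genes of the lymphatic list moved less and not all the same way. Flt4, coding for the lymphatic growth factor receptor VEGFR-3, was 2.63-fold higher in 4T1, and its difference of 0.58 shrank to 0.37 without 4T1 tumor 4, and its call was lost without 4T1 tumor 5 and 66cl4 tumor 3 (adjusted p = 0.073). Pdpn, coding for podoplanin, was 3.27-fold higher in 66cl4, and Vegfc, a ligand of VEGFR-3, 3.06-fold. The fourth gene higher in 66cl4, Vegfd, also a ligand of that receptor, is named after its values were seen and was 3.86-fold higher. In all, 4 of the 6 listed genes of this list, which holds these ligands besides vessel markers, were higher in 66cl4 and 1 in 4T1. The lymphatic transcription factor Prox1 was not among the listed genes.

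Of the 24 listed chemokines and receptors of monocytes and lymphocytes, 8 were higher in 4T1 and 7 in 66cl4. Ccl6 had 413, 1473, 1539 and 959 normalized counts in the 4T1 and 7510.4, 9582, 10415, 8541 and 9954 in the 66cl4 tumors and was 8.39-fold higher in 66cl4 (difference -3.05, SE 0.29, adjusted p = 8.9e-06), and Ccl9 was 8.78-fold higher. Ccl2 and Ccl7, ligands of CCR2, were 3.44-fold and 2.96-fold higher in 66cl4. Cxcl12 had 26.01, 14.1, 526 and 582 normalized counts in the 4T1 and 1536, 2004, 2058, 2042 and 1604 in the 66cl4 tumors, where 4T1 tumors 1 and 2 lay far below tumors 4 and 5, and all 4 below every 66cl4 tumor. In 4T1, Cxcl14 had 3640, 1338, 3461 and 3089 normalized counts in the 4T1 and 166, 165, 666, 285 and 515 in the 66cl4 tumors, Cx3cl1, the ligand of CX3CR1, was 6.14-fold higher, and Cxcl9, which interferon gamma induces, was 15.6-fold higher.

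Among the T cell markers, Cd8a, a chain of the co-receptor of cytotoxic T cells, had 212, 113, 139 and 397 normalized counts in the 4T1 and 13.8, 8.02, 7.91, 27.1 and 24.02 in the 66cl4 tumors. Its difference was 1.57 (SE 0.21, adjusted p = 1.3e-04). Cd3e and Cd3g were 4.81-fold and 5.04-fold higher in 4T1, while Cd4 did not pass (difference 0.24, SE 0.15, adjusted p = 0.21). The 17 cytotoxic and natural killer genes were split, 5 each way, with sums of 495 to 2045 in 4T1 against 1058 to 4462 in 66cl4. Their counts were 3 and 5 without 4T1 tumor 5 and 66cl4 tumor 3, and leaving out 1 tumor gave 3 to 7 higher in 4T1 and 3 to 6 in 66cl4. Without the 25% of genes with the lowest mean, 7 of them remained, 0 higher in 4T1 and 4 in 66cl4, with a median difference of -1.02. The granzymes Gzmc, Gzmd and Gzmf were higher in 66cl4, with differences of -1.29, -2.02 and -2.44 and overlapping groups, and Gzmf had 277, 87.6, 6.38 and 2.62 normalized counts in the 4T1 and 1109, 752, 868, 1159 and 186 in the 66cl4 tumors. Gzmb and Gzma did not pass (-0.46 and 0.47, adjusted p = 0.37 and 0.17). Klrk1, coding for the activating receptor NKG2D, was 4.60-fold higher in 4T1. Of the 8 listed B cell and plasma cell genes, 1 was called in each direction, and the defining genes Ighm and Igkc were not in the table.

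Collagen chain genes were more often higher in 4T1 than in 66cl4. Of the 35 collagen chain genes, 19 were higher in 4T1 and 5 in 66cl4, with a median difference of 0.64. Col1a1, a chain of type I collagen, had 13425, 9585, 35144 and 20424 normalized counts in the 4T1 and 1499, 1214, 4967, 1395 and 3541 in the 66cl4 tumors. Its difference was 2.94 (SE 0.46, adjusted p = 3.4e-04), and its partner Col1a2 was 6.18-fold higher. Col7a1, the anchoring fibril of epithelial basement membranes, had 5224, 4288, 4239 and 2466 normalized counts in the 4T1 and 135, 143, 325, 133 and 184 in the 66cl4 tumors and was 22.02-fold higher (difference 3.79, SE 0.22, adjusted p = 2.8e-07). In 66cl4, the chain genes Col10a1 and Col6a5 were higher, and Col6a5 had 0, 1.56, 6.38 and 48.5 normalized counts in the 4T1 and 1518, 813, 43.96, 447 and 538 in the 66cl4 tumors. 66cl4 tumor 3 was the lowest of its group for both genes, and the call of Col6a5 was lost with limma-voom (adjusted p = 0.12). Fibroblast markers moved with the collagens: 8 of 15 were higher in 4T1 and 2 in 66cl4, with sums of 7187 to 20920 against 5983 to 7788, highest in 4T1 tumors 4 and 5, and their part was not tested. Postn, coding for the matrix protein periostin, had 2557, 1318, 3862 and 4033 normalized counts in the 4T1 and 63.8, 139, 841, 134 and 344 in the 66cl4 tumors, while Pdgfra and Pdgfrb were 2.93-fold and 2.69-fold higher in 66cl4.

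Of 22 listed genes of matrix proteolysis, which include inhibitors and a receptor besides the proteases, 16 were higher in 4T1 and 3 in 66cl4. Mmp13, a collagenase, had 1824, 639.5, 808 and 2220.1 normalized counts in the 4T1 and 48.8, 32.1, 23.7, 29.6 and 40.04 in the 66cl4 tumors and was 39.4-fold higher (difference 3.33, SE 0.29, adjusted p = 5.1e-06), Mmp3 was 14.7-fold higher and Mmp14 2.71-fold. Mmp9, the gelatinase of neutrophils and macrophages, had 823, 739.6, 567 and 4049.7 normalized counts in the 4T1 and 2026, 1615, 1343, 1895 and 2141 in the 66cl4 tumors. It did not pass with all tumors (difference -0.62, SE 0.43, adjusted p = 0.25) and was higher in 66cl4 (difference -1.20, adjusted p = 1.2e-04) without 4T1 tumor 5. Adamts5 and Adamts1, metalloproteases of proteoglycans, were 14.3-fold and 5.11-fold higher in 66cl4. Of the 28 genes whose symbols begin with Itga or Itgb, 3 of which are not integrin chains themselves, 14 were higher in 4T1 and 3 in 66cl4. Itga2, Itga3 and Itga6, chains of collagen and laminin receptors, were 25.02-fold, 3.37-fold and 3.96-fold higher in 4T1, while Itga10 was 13.2-fold higher in 66cl4.

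Endothelial markers were higher in 4T1 in 7 of 15 cases, 11 without 4T1 tumor 1 and 5 without 66cl4 tumor 2 or 66cl4 tumor 4, and in no case higher in 66cl4, with sums of 5744 to 12550 against 3072 to 3868. Flt1 and Eng, coding for VEGFR-1 and endoglin, were 5.14-fold and 4.45-fold higher, whereas Cdh5, the endothelial cadherin, had 481, 686, 1946 and 722 normalized counts in the 4T1 and 697, 696, 552, 592 and 762 in the 66cl4 tumors and did not pass (difference 0.30, SE 0.28, adjusted p = 0.39). 4T1 tumor 4 was the highest of all 9 tumors for Cdh5, whose difference was -0.065 without it. Vegfa, which hypoxia induces, was 2.36-fold higher in 4T1. Of the 23 hypoxia and glycolysis genes, 10 were higher in 4T1 and 1 in 66cl4, with Egln3, an oxygen-sensing hydroxylase, at 4268, 2549, 4845 and 3172 normalized counts in the 4T1 and 431, 202, 157, 281 and 246 in the 66cl4 tumors, whereas Ldha, lactate dehydrogenase A, did not pass (difference -0.19, SE 0.15, adjusted p = 0.3).

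In the transforming growth factor beta family, 10 of 22 members were higher in 4T1 and 7 in 66cl4. Inhba, a subunit of activin A, had 1258, 1419.8, 2541 and 1883 normalized counts in the 4T1 and 56.3, 59.6, 49.2, 57.96 and 98.8 in the 66cl4 tumors and was 27.6-fold higher in 4T1 (difference 3.44, SE 0.18, adjusted p = 8.6e-08). Bmp4 ran opposite, with 2.36, 10.9, 22.8 and 5.24 normalized counts in the 4T1 and 623, 622, 331, 537 and 565 in the 66cl4 tumors, 51.9-fold more in 66cl4 (difference -2.77, SE 0.16, adjusted p = 2.4e-07). The ligand gene Tgfb3 was 2.88-fold higher in 4T1. The receptors Tgfbr1 and Tgfbr3 differed in direction, 1.82-fold higher in 4T1 and 4.04-fold higher in 66cl4. Of 23 Wnt pathway genes, 13 were higher in 4T1 and 1 in 66cl4. Wnt7a had 264, 277, 53.7 and 266 normalized counts in the 4T1 and 0, 1.15, 0, 2.58 and 0 in the 66cl4 tumors, Notum, an enzyme that inactivates Wnt proteins, had 148, 389, 232 and 232 normalized counts in the 4T1 and 3.75, 0, 1.76, 2.58 and 4.00 in the 66cl4 tumors, and Axin2, a common target of Wnt signalling, was the gene higher in 66cl4, 6.87-fold.

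Receptors of hormones and growth factors were in 8 of 18 cases higher in 66cl4 and in 3 higher in 4T1, or 5 without 4T1 tumor 2. Their median difference, 0.05, had the opposite sign to that count. Of the 3 receptors that define triple-negative disease by their absence, Pgr, the progesterone receptor, had 5.91, 0, 1.82 and 13.1 normalized counts in the 4T1 and 2.50, 4.59, 2.64, 2.58 and 5.34 in the 66cl4 tumors. Erbb2, coding for HER2, did not pass (difference 0.19, SE 0.11, adjusted p = 0.18). Esr1, the estrogen receptor alpha, had 141, 108, 188 and 194 normalized counts in the 4T1 and 309, 338, 215, 283 and 256 in the 66cl4 tumors, with no overlap, and was 1.78-fold higher in 66cl4. Fgfr2 was 7.20-fold higher in 4T1 (difference 2.25, SE 0.19, adjusted p = 3.6e-06) and Egfr 5.21-fold, while Ddr2, a collagen receptor of mesenchymal cells, was 3.14-fold higher in 66cl4.

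Hox genes, which give cells their position along the body axis, differed in both directions. Of 25 Hox genes, 10 were higher in 4T1 and 9 in 66cl4, and the 4 largest differences belonged to the HoxA cluster in 4T1 and to the HoxB cluster in 66cl4. Hoxa5 had 1119.6, 1653, 1263 and 862 normalized counts in the 4T1 and 81.3, 99.7, 84.4, 85.01 and 107 in the 66cl4 tumors and was 13.4-fold higher in 4T1 (difference 2.71, SE 0.14, adjusted p = 1.1e-07), with Hoxa2 and Hoxa3 25.99-fold and 6.90-fold higher. Hoxb6 had 8.28, 7.82, 9.11 and 13.1 normalized counts in the 4T1 and 205, 165, 191, 176 and 208 in the 66cl4 tumors and was 19.8-fold higher in 66cl4, and Hoxb7, Hoxb3 and Hoxb5 were 5.24-fold, 4.32-fold and 8.30-fold higher. In the imprinted genes, 13 of 17 listed were higher in 4T1 and 1 in 66cl4. H19 and Igf2, neighbours that share an enhancer and are expressed from opposite parental alleles, moved in opposite directions. H19 had 945, 1369.8, 3346 and 495 normalized counts in the 4T1 and 5.01, 13.8, 299.8, 16.7 and 30.7 in the 66cl4 tumors, a difference of 3.28 (SE 0.53, adjusted p = 4.1e-04). Igf2 had 2.36, 0, 10.9 and 2.62 normalized counts in the 4T1 and 338, 282, 29.9, 334 and 537 in the 66cl4 tumors, a difference of -2.21 (SE 0.38, adjusted p = 6.8e-04) whose call was lost with limma-voom (adjusted p = 0.096). 66cl4 tumor 3 was the highest of its group for H19 and the lowest for Igf2. Phlda2, which restrains placental growth, had 135, 152, 110.2 and 99.6 normalized counts in the 4T1 and 0, 1.15, 0, 0 and 0 in the 66cl4 tumors.

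Cell cycle and p53 genes leaned towards 66cl4. Of 27 cell cycle genes, 10 were higher in 66cl4 and 2 in 4T1, or 7 and 2 without 4T1 tumor 5 and 66cl4 tumor 3. Mki67, the proliferation marker Ki-67, had 1172, 982, 1233 and 1388 normalized counts in the 4T1 and 2858, 2228, 2923, 1766 and 1556 in the 66cl4 tumors, without overlap and with a difference of -0.83 (SE 0.18, adjusted p = 0.0029). The largest difference of the list was that of Mycn, a MYC family transcription factor, with 4.73, 1.56, 9.11 and 5.24 normalized counts in the 4T1 and 288, 353, 199.6, 385 and 347 in the 66cl4 tumors, which is 60.9-fold more in 66cl4, whereas Myc was 1.64-fold higher in 4T1. Of 20 genes of the p53 pathway, 13 were higher in 66cl4 and 2 in 4T1. Trp53 itself had 498, 468, 496 and 512 normalized counts in the 4T1 and 1603, 1488, 1543, 1459 and 1341 in the 66cl4 tumors. The groups were narrow and far apart, with a difference of -1.38 (SE 0.07, adjusted p = 8.6e-08). Its targets Cdkn1a, Sesn1 and Zmat3 were 1.63-fold, 4.27-fold and 2.62-fold higher in 66cl4. Perp, the desmosome gene that p53 and p63 induce, ran the other way. It was 420-fold higher in 4T1 (difference 3.53), the largest difference of this list.

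Of the 16 listed genes of the oxidative stress response, 11 were higher in 66cl4 and 2 in 4T1. Besides Aldh3a1, Gstm1, a glutathione transferase, had 33.1, 23.4, 53.7 and 51.1 normalized counts in the 4T1 and 1426, 1136, 468, 681 and 794 in the 66cl4 tumors and was 22.3-fold higher (difference -2.79, SE 0.24, adjusted p = 4.6e-06), Nqo1 8.92-fold and Hmox1 3.80-fold. 66cl4 tumors 1 and 2 were the highest for Aldh3a1, Gstm1 and Nqo1 and tumor 3 was the lowest. Slc7a11, the cystine transporter, ran the other way, with 406, 749, 914 and 442 normalized counts in the 4T1 and 125, 53.9, 36.05, 36.1 and 69.4 in the 66cl4 tumors, and Keap1, the inhibitor of the pathway's transcription factor NRF2, was 1.43-fold higher in 4T1. Nfe2l2, which codes for NRF2, did not pass (difference 0.19, SE 0.12, adjusted p = 0.21) except without 4T1 tumor 5 (0.29, adjusted p = 0.049). Of 15 complement genes, 7 were higher in 66cl4 and 2 in 4T1, with Cfp, coding for properdin, 4.22-fold higher in 66cl4 and Cfb 3.80-fold higher in 4T1. Of the 19 listed genes of the Stat3 pathway, 8 were higher in 4T1 and 1 in 66cl4, or 8 and 4 without 4T1 tumor 5 and 66cl4 tumor 3, and 3 were higher in 66cl4 without 4T1 tumor 4 or 4T1 tumor 5. Their median difference was -0.13, and it was -0.0592 without 4T1 tumor 5 and -0.0688 without 66cl4 tumor 5. The kinase gene Jak2 had 2895, 3371, 1952 and 3502 normalized counts in the 4T1 and 476, 441, 435, 527 and 415 in the 66cl4 tumors, the receptor gene Osmr was 4.91-fold higher in 4T1 and Stat3 itself 1.67-fold (difference 0.68, SE 0.10, adjusted p = 1.7e-04).

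Of 10 listed names of chitinase-like proteins, the targets of the chitin treatment in this series, and of chitinases, 5 were among the genes of the table, and Chil1, Chil3 and Ovgp1, all of low count, were higher in 4T1. The 3 calls fell to 2 without 4T1 tumor 5 and 66cl4 tumor 3 and to 1 without 66cl4 tumor 1 or 66cl4 tumor 2. Summed counts of the 5 genes were 668 to 805 in 4T1 and 739.7 to 859.5 in 66cl4, with medians of 786 and 835. Most of each sum came from Chid1 and Ctbs, which were not called, so the sums say little about Chil1, Chil3 and Ovgp1. Chil1 had 15.4, 32.8, 61.9 and 39.3 normalized counts in the 4T1 and 10.01, 12.6, 7.91, 5.15 and 34.7 in the 66cl4 tumors and a difference of 0.41 (SE 0.15, adjusted p = 0.039), with overlapping groups. Its call was lost on leaving out any of 7 of the 9 tumors, with adjusted p-values of 0.063 to 0.11 in those fits. Chil3 had 16.6, 7.82, 6.38 and 87.8 normalized counts in the 4T1 and 0, 0, 3.52, 2.58 and 1.33 in the 66cl4 tumors and differed by 0.64 (SE 0.21, adjusted p = 0.022), a difference that became 0.39 without 4T1 tumor 5 and lost its call without 66cl4 tumor 1 or 2. Chil3 has near-identical copies, so its value is uncertain. Ovgp1 was higher in 4T1 with 7.09, 14.1, 12.8 and 14.4 normalized counts in the 4T1 and 2.50, 2.29, 0.88, 3.86 and 2.67 in the 66cl4 tumors. The other members in the table, Chid1 and Ctbs, named after their values were seen, differed by -0.14 (adjusted p = 0.12) and -0.26 (adjusted p = 0.064), and Ctbs passed without 4T1 tumor 1 (adjusted p = 0.021). Of the 6 listed receptors linked to chitin, 1 was higher in each model, Stab1 in 66cl4 and Clec7a, which codes for dectin-1, in 4T1. Il13ra2, which codes for a receptor of CHI3L1, and Fibcd1 were not among the genes of the table.

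Of 82 cytosolic ribosomal protein genes, 29 were higher in 66cl4 and 4 in 4T1, with a median difference of -0.19, which was -0.0925 without 4T1 tumor 4, and none past 1 in either direction. Of 84 respiratory chain subunit genes, 16 were higher in 66cl4 and 12 in 4T1, with a median of 0.04, and 12 and 18 without 4T1 tumor 5 and 66cl4 tumor 3. The 18 cholesterol synthesis genes gave 4 higher in 66cl4 and 1 in 4T1, or 3 each without those 2 tumors, and 2 were higher in 66cl4 without 4T1 tumor 4. Of the 10 genes of the list of RNA quality and stress, which also holds Xist, 2 were higher in 4T1 and 1 in 66cl4. No adipocyte marker of the 10 listed and none of the 3 listed erythroid genes was called. Of the 7 listed lactation genes 1 was higher in 66cl4, a call lost without 4T1 tumor 1 or 2, in the fit of all 39 tumors and with the block. Of the 6 listed mast cell and basophil genes 1 was higher in 4T1, and of the 6 listed nerve genes 1 in each direction. In treated tumors 10 adipocyte, 5 lactation and 4 nerve genes were higher in 4T1, and 1 nerve gene was higher in 66cl4.

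Shares of called genes varied between chromosomes. On chromosome 18, 46.8% of 370 genes were higher in 66cl4 and 15.4% in 4T1, and on chromosomes 13 and 7 the shares higher in 66cl4 were 41.9% and 40.1%. In contrast, 38% of 471 genes on chromosome 12 were higher in 4T1, 37.7% of 766 on chromosome 8 and 37.6% of 804 on chromosome 9. Median differences ran from -0.21 on chromosome 18 to 0.19 on chromosome 12. These shares are descriptions, since neighbouring genes are not independent, and the same measure in the 30 treated tumors gave medians of -0.16 and 0.14 for these 2 chromosomes.

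**Figure D4:**
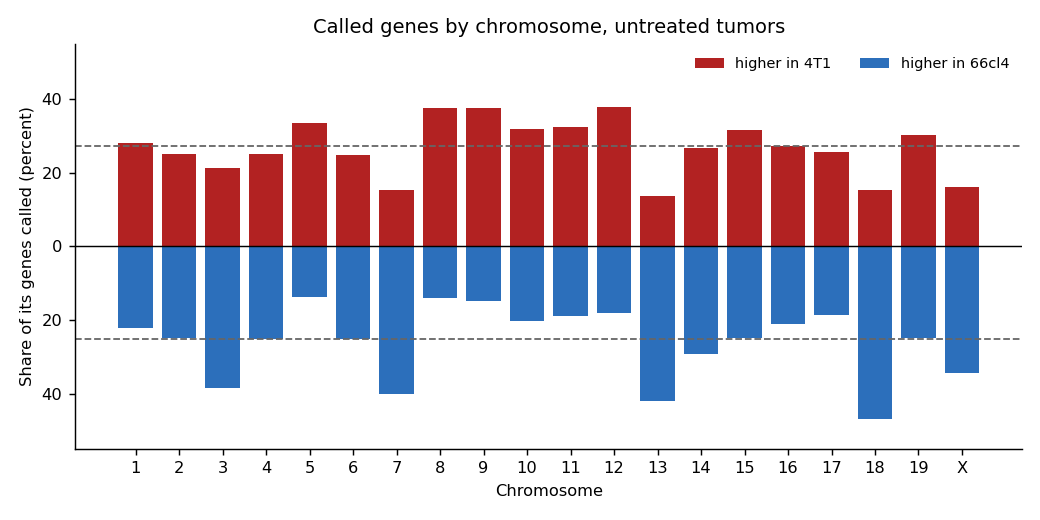
Share of the genes of each chromosome (percent, vertical axis) that was higher in 4T1 (red, upwards) or higher in 66cl4 (blue, downwards) in untreated tumors. The dashed lines mark the shares over all genes, 27.2% and 25.1%, and chromosomes 18, 13 and 7 reach furthest towards 66cl4.

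The differences were then read in tumors that had no part in the comparison, the 15 treated 4T1 and 15 treated 66cl4 tumors, with treatment as covariate. There 5582 genes (39%) were higher in 4T1 and 5199 (36.3%) higher in 66cl4, together 75.3%. Of the 3901 genes higher in untreated 4T1, 3754 (96.2% of them and 67.3% of those in treated tumors) were also higher in treated 4T1, and of the 3590 higher in untreated 66cl4, 3446 (96% and 66.3%). Of the genes with a difference of at least 1, 920 of 922 and 489 of 493 were called in the same direction. Crot, an enzyme of fatty acid oxidation singled out after its values were seen, was the 1 gene called in opposite directions, at 0.21 (adjusted p = 0.032) in untreated and -0.15 (adjusted p = 0.0029) in treated tumors. Its untreated call was lost without 4T1 tumor 1 or 2 or 66cl4 tumor 1, 3 or 5. In a test of whether the model difference itself differed between untreated and treated tumors, limma called 0 of 14318 genes, with 746 (5.21%) at an unadjusted p under 0.05, and limma-voom called 0 with 588. Chil1 and Chil3 had treated differences of 0.70 and 1.21, Cdh1 4.20, Mrc1 -2.71, Csf3 2.14 and Ciita 1.70.

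**Figure D5:**
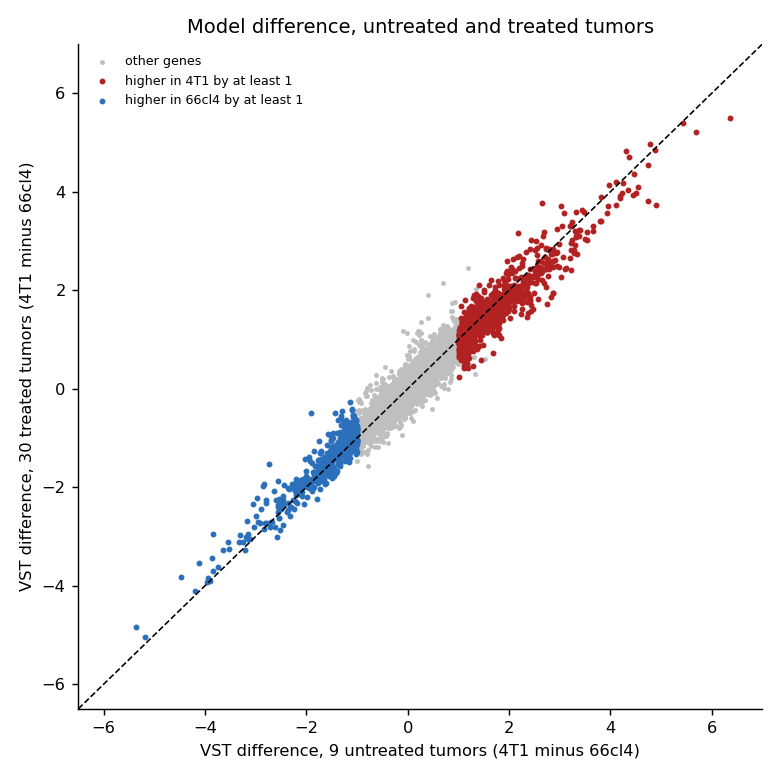
VST difference, 4T1 minus 66cl4, of each gene in the 9 untreated tumors (horizontal axis) and in the 30 treated tumors (vertical axis), with genes called in untreated tumors with a difference of at least 1 in red (922, higher in 4T1) and blue (493, higher in 66cl4) and the rest in grey. The coloured points lie along the line of equality (dashed), and no coloured gene was called in the opposite direction in treated tumors.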

How the data were processed

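Bulk RNA of whole primary tumors was isolated (RNeasy), made into stranded TruSeq libraries and sequenced as paired ends by the authors, who aligned reads to mm10 with HISAT2 and counted them per gene with summarizeOverlaps with regard to strand. Tool versions and the gene annotation are not given in the sources used here. The authors then removed genes of low count and deposited 1 table of log2-like values, made with the variance stabilizing transformation (VST) of DESeq2, for 39 tumors. The authors' filter was applied over all tumors, so that a gene expressed in 1 model only could stay in the table.

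The transformation was inverted with the lowest value (6.05, which stands for 0 reads). Within a tolerance of 0.001 reads, 100% of the recovered values were whole reads, and 5105898 to 8732427 reads per untreated tumor were recovered, which covers listed genes only. Normalized counts are these reads over each tumor's size factor. They are not per length, so that levels compare between tumors and not between genes. Folds are ratios of mean normalized counts, and where a model had 0 reads its mean was set to that of 3 reads over the group. Such bounds cover counting error only. No fold is given where a model held 1 to 3 reads.

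Model differences were tested on the deposited log2-like values with limma 3.58.1 in R 4.3.3 (moderated with a mean-variance trend), on the 9 untreated tumors without covariates, with Benjamini-Hochberg adjustment over 14318 genes and a threshold of 0.05. The 30 treated tumors were fitted with treatment as covariate, and the difference between the contrasts over all 39 tumors. Library measures were compared by two-sided exact permutation tests, for which 126 splits allow a p of at least 0.0159. The code was tested on simulated data. Python 3.11.15 made the tables and figures.

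The members and all gene lists were chosen with earlier results of these data known, so list counts are descriptions. Named were the 15 largest differences in each direction without overlap, the 10 genes of highest mean among those nearly silent in 1 model, of each list the first 5 members and the 3 with the largest called difference in each direction, and of each family the 4 largest. Exceptions are marked, and a few genes that the rule names are not reported here. Promoter windows and gene positions came from RefSeq (GRCm38.p6). Alternatives were other samples in the fit, trend, filter, scaling, weights, depth, limma-voom, a block for tumor number and leaving out each tumor. One, without 4T1 tumor 5 and 66cl4 tumor 3, was chosen after seeing the data.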

Additional observations from a re-analysis of the deposited data

Results flagged for a closer look

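Single tumors were looked for that lay apart from all others of their own group by Dixon's rule, on the VST values of the genes named and on the summed normalized counts of the lists. Of 522 groups of values, 41 held such a tumor, where chance flags about 1 in 20. Most of them were 66cl4 tumor 3, with 14, and 4T1 tumor 5, with 9.

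66cl4 tumor 3 lay above its group for Ccl2 (VST 10.1), Cdh2 (VST 10.3), H19 (VST 8.72) and Ifng (VST 6.22). 66cl4 tumor 3 lay below its group for Adamts5 (VST 9.63), Bmp4 (VST 8.83), Col10a1 (VST 7.12) and Lrrn4cl (VST 10.4). It also lay below the others for Pdgfra (VST 10.5), Prrx2 (VST 10.3) and Stat3 (VST 10.3). Its summed count of the T cells list was 449, against 558 to 592 in the other tumors of the group. Its summed count of the skeletal muscle list was 4124, against 115 to 229 in the other tumors of the group. Its summed count of the cholesterol synthesis list was 12463, against 8415 to 9431 in the other tumors of the group. 4T1 tumor 5 lay above its group for Cldn9 (VST 7.27), Foxd1 (VST 6.25), Krt10 (VST 11.7) and Krt14 (VST 12). 4T1 tumor 5 lay below its group for Itga2 (VST 9.01), S100a8 (VST 7.60) and S100a9 (VST 7.99). Its summed count of the skin and cornified epithelium list was 3164, against 26.4 to 68.6 in the other tumors of the group. Its summed count of the p53 pathway and cell cycle inhibitors list was 8461, against 9771 to 9950 in the other tumors of the group.

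4T1 tumor 4 lay above its group for Cx3cr1 (VST 11.1) and Pcdh17 (VST 6.98). 4T1 tumor 4 lay below its group for Krt18 (VST 12.3) and Wnt7a (VST 7.31). 4T1 tumor 2 lay above its group for Lcn2 (VST 11.8). 4T1 tumor 2 lay below its group for Cxcl14 (VST 10.5) and Sema3a (VST 6.84). Its summed count of the chitinase-like proteins and chitinases list was 668, against 785 to 805 in the other tumors of the group. 66cl4 tumor 5 lay above its group for Inhba (VST 7.72) and Lbx1 (VST 9.71). 66cl4 tumor 5 lay below its group for Gzmd (VST 8.43) and Gzmf (VST 8.25). 66cl4 tumor 1 lay above its group for Havcr2 (VST 7.53). 66cl4 tumor 1 lay below its group for C1qa (VST 12.5) and Keap1 (VST 9.74). 66cl4 tumor 4 lay above its group for Cxcl9 (VST 7.97). 66cl4 tumor 2 lay above its group for Phlda2 (VST 6.24). 4T1 tumor 1 lay above its group for Xlr3a (VST 6.24).

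Foxd1, Ifng, Phlda2 and Xlr3a are near 0 reads in the group concerned, so that 1 or 2 reads set their values. What the tumors that lay apart held besides was not tested. No gene passed the test for a model difference that differed between untreated and treated tumors.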

How the results depend on the processing

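The counts of genes higher in 4T1 and in 66cl4 stayed within 1.5 times of 3901 and 3590 under every alternative run, with leave-one-out ranges of 3478 to 3815 and 3228 to 3535. Median centring gave 3622 and 3937 and quantile normalization 3266 and 4417, so that with either more genes were higher in 66cl4 than in 4T1. Leaving out both tumors that stood apart gave 3674 and 3409. With a minimum difference of 0.5 in place of 1 the counts were 2288 and 1619, and with 2 they were 234 and 101. Genes nearly silent in the other model numbered 202 (present in 4T1) and 106 (present in 66cl4) at up to 10 reads, and 131 and 107 from a mean of 20 normalized counts, and leaving out 1 tumor gave 46 to 88 and 62 to 72. In the treated tumors limma-voom gave 5540 and 5250, and median centring left 0 genes whose model difference differed between untreated and treated tumors, with 731 at an unadjusted p under 0.05. Of the 212 genes named, 199 kept their call and direction in every leave-one-out fit. Among the genes named, the sign changed for Pgr, Vim and Cdh5, none of which passed. Leaving out 1 tumor gave -0.10 to 0.11 for Pgr, -0.23 to 0.12 for Vim and -0.065 to 0.53 for Cdh5, and Vim stood at 0.20 without both tumors that stood apart. Chil1 lost its call in the fit of all 39 tumors (adjusted p = 0.26), at equal depth (0.07), with median centring (0.051), quantile normalization (0.12), weights (0.097) and the block (0.079), and Chil3 (0.30) and Cxcl1 (0.12) lost theirs in the fit of all 39 tumors. Tumor numbers 1, 2, 4 and 5 occur in both models, and the labels do not pair them. The same-number correlations of deviations were 0.021 to 0.081, and the block was run only as an alternative. With tumor number as a replicate block, 3619 genes were higher in 4T1 and 3226 in 66cl4, and of the genes named Chil1 and Crot lost and Csf3r gained a call. C1qa, Csf3r, Ctbs, Krt10, Mmp9 and Nfe2l2 gained a call when 1 tumor was left out. With the block, 5 of 15 endothelial markers were higher in 4T1. The cause of these changes was not tested. Without both tumors that stood apart, epithelial counts were 25 of 28, MHC class I 15 of 16, MHC class II 9 of 11, and interferon response 25 of 29 in the direction of 4T1, and macrophage counts 3 in the direction of 4T1 and 12 of 27 in that of 66cl4. Depth limits the genes of few reads, for which the VST understates differences.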
